A study of Mus musculus with 6 samples.

Results

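A set of 10 miRNA names that mark blood cells were followed in extracellular vesicles (membrane-bound particles shed by cells) from mouse brain. They were taken by name as a check on blood carry-over: mmu-miR-223-3p, mmu-miR-223-5p and mmu-miR-147-3p for myeloid cells, mmu-miR-150-5p and mmu-miR-342-3p for lymphoid cells, and mmu-miR-451a, mmu-miR-144-3p, mmu-miR-144-5p, mmu-miR-486a-5p and mmu-miR-486b-5p for red cells. The prefix mmu stands for mouse and is left out from here on. These 10 names fill 9 of the 1926 rows of the authors' deposited table, because miR-486a-5p and miR-486b-5p share a merged row. The libraries form 2 groups of 3, vesicles of mice that had gone through status epilepticus, a prolonged seizure (SE-BDEV 1 to 3), and vesicles of matched controls (CON-BDEV 1 to 3), all titled day 10. The sources used here do not give the starting point of that day count, how status epilepticus was induced, or the strain, age and sex of the mice. Nothing in the labels ties each library to its own animal, so the spread within a group, and the p-values built on it, may be technical.

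A miRNA is cut from a hairpin transcript as a duplex, and either arm (5p or 3p) can be loaded into the silencing complex, where bases 2 to 8, the seed, pair with target mRNAs. Some miRNAs are made almost entirely in blood lineages. miR-223 is abundant in neutrophils and monocytes, miR-150 in mature lymphocytes, and the cluster of miR-144 and miR-451a is driven in erythroid cells by GATA1, which makes miR-451a one of the most abundant miRNAs of red cells. For that reason miR-451a set against a less blood-specific miRNA is widely used as a sign of red cell material in plasma and tissue.

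Of the 10 names, 6 had a mature sequence in RefSeq (GRCm38.p6). They are shown because they include the 3 red cell miRNAs that were listed at 0, beside both arms of miR-223 and the most abundant of the 10, miR-342-3p. Capitals mark the seed, and each is written 5′ to 3′.
miR-223-3p: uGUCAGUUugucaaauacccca
miR-223-5p: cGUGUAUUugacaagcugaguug
miR-342-3p: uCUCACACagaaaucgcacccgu
miR-451a: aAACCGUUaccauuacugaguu
miR-144-3p: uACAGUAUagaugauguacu
miR-144-5p: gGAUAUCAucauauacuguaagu

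The 6 sequences carried 6 different seeds, and none of the 1679 mature miRNA names searched in RefSeq had bases 2 to 8 in common with any of them. GC content was 40.9% for miR-223-3p, 43.5% for miR-223-5p and 52.2% for miR-342-3p. It was 36.4% for miR-451a, 30.0% for miR-144-3p and 30.4% for miR-144-5p, against a median of 52.2% over the 1679 names. In RefSeq (GRCm38.p6) miR-223-3p lies at chrX:96242884-96242905, miR-342-3p at chr12:108658680-108658702, miR-144-3p at chr11:78073047-78073066 and miR-451a at chr11:78073186-78073207, all on the plus strand. By GENCODE M21 (GRCm38) the miR-342 hairpin sits in an intron of Evl, a regulator of actin filaments, and the miR-486 hairpin in an intron of Ank1, which encodes the red cell membrane protein ankyrin. The miR-223 hairpin lies in an exon of F630028O10Rik and the miR-147 hairpin in an exon of AA467197. The miR-150 hairpin and the neighbouring miR-144 and miR-451a hairpins lie outside other annotated genes.

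The deposited values are RPM, each miRNA's share of a library's miRNA reads on a scale that is the same for all libraries. Within each library every value above 0 was within 0.0001 of a whole multiple of a single step, taken as 1 read, which puts the libraries at 4400167 to 9391887 reads with 532 to 631 miRNAs above 0. The smallest listed value was 2 reads, so a row listed at 0 had under 2 reads or had its value removed. miR-24-3p, found in most tissues, was listed at 0 in the 4 libraries numbered 1 and 2, while SE-BDEV 3 had 3128 RPM of it and CON-BDEV 3 had 3544 RPM. A 0 in this table therefore cannot be read as absence and sets no upper limit on a level, and both libraries numbered 3 stand apart. All 6 brain markers, among them the neuronal miR-124-3p and the oligodendrocyte miR-219a-2-3p, were above 0 in every library, with summed levels of 19520 to 37409 RPM in SE-BDEV and 23262 to 28478 RPM in CON-BDEV.

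Levels of the blood cell miRNAs were spread over a wide range. Of the 9 rows, 3 were above 0 in all 6 libraries, 2 in only some libraries, and 4 were listed at 0 throughout. For comparison, 1123 of all 1926 rows (58.3%) were listed at 0 in every library. By mean RPM over the 6 libraries the order was miR-342-3p, the merged miR-486a-5p and miR-486b-5p, miR-150-5p, miR-223-3p and miR-223-5p. miR-342-3p exceeded the next member in 6 of 6 libraries, and miR-150-5p exceeded miR-223-3p in 6 of 6. The merged miR-486 row exceeded miR-150-5p in 5 of 6 libraries, the exception being CON-BDEV 3, and miR-223-3p exceeded miR-223-5p in 5 of 6, both being listed at 0 in CON-BDEV 3. RPM of different miRNAs also depend on how well each is ligated and amplified, so this order is one of reads.

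**Figure D1:**
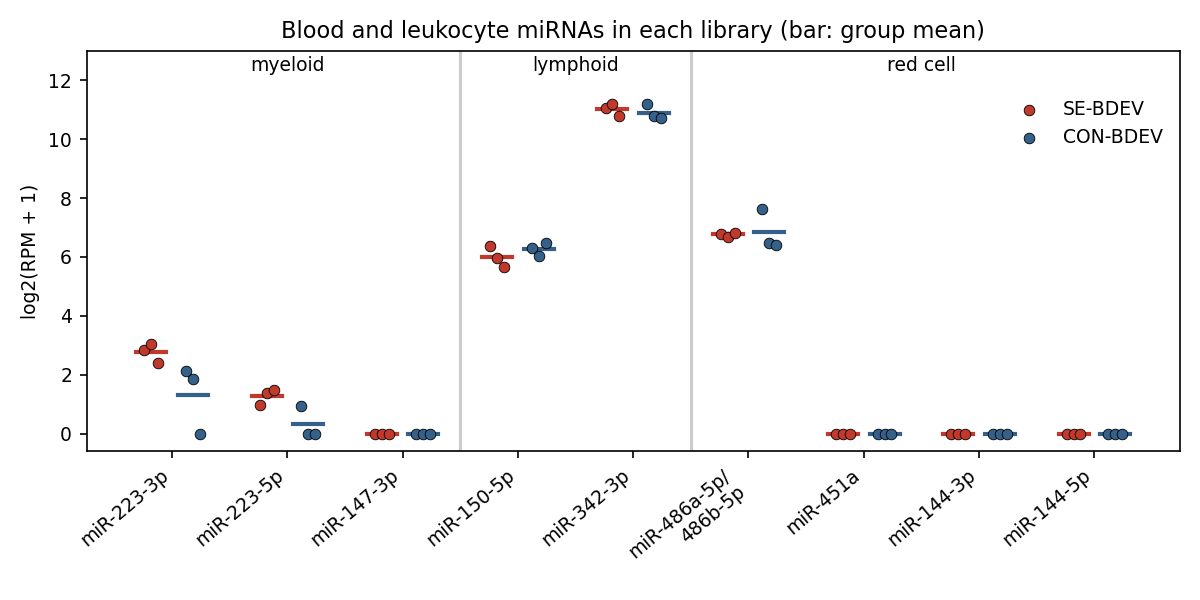
Level of each blood or leukocyte miRNA, as log2(RPM + 1), in the 3 SE-BDEV libraries (red, left of each pair) and the 3 CON-BDEV libraries (blue, right), with bars at group means. miR-342-3p lies highest, miR-150-5p and the merged miR-486 row overlap between groups, both miR-223 arms lie higher in SE-BDEV at low levels, and 4 rows are listed at 0.

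Among the red cell miRNAs, miR-451a and both arms of miR-144 were listed at 0 in all 6 libraries. miR-451a is processed by Argonaute 2 without Dicer. Its hairpin is the reverse complement of that of miR-451b on the other strand, and miR-451b was listed at 0 as well. miR-16-5p, which red cells carry in quantity and most other cells also make, had 11858, 11129 and 10893 RPM in SE-BDEV 1, 2 and 3, against 6252, 8673 and 9201 RPM in CON-BDEV 1, 2 and 3. miR-23a-3p/23b-3p, whose 23a form is the usual partner of miR-451a in tests for red cell material, had 481, 379.9 and 434 RPM in SE-BDEV 1, 2 and 3, against 385, 345 and 845 RPM in CON-BDEV 1, 2 and 3. No ratio of miR-451a to either is given, since a level listed at 0 may be a removed value.

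The merged row of miR-486a-5p and miR-486b-5p, a miRNA made in erythroid cells and in muscle, was well above 0. It had 109.8, 102 and 111 RPM in SE-BDEV 1, 2 and 3, against 199, 87.4 and 83.6 RPM in CON-BDEV 1, 2 and 3. The SE-BDEV libraries lay close together and inside the range of the controls, of which CON-BDEV 1 was the highest of all 6. Means were 108 ± 5.04 RPM in SE-BDEV and 123 ± 65.5 RPM in CON-BDEV (SD, n = 3 each). By limma, a linear model with variances moderated across miRNAs, the log2 difference was -0.07 (95% interval -0.86 to 0.71, adjusted p = 0.959). Without CON-BDEV 1 it was 0.33, and with both libraries numbered 3 left out it was -0.32. The ratio of miR-486-5p to miR-16-5p was 0.00926, 0.00915 and 0.0102 in SE-BDEV 1, 2 and 3, against 0.0318, 0.0101 and 0.00909 in CON-BDEV 1, 2 and 3 (two-sided exact permutation p = 0.7, or 0.9 adjusted over 4 ratios, smallest possible 0.1). Set against miR-23a-3p/23b-3p it was 0.228, 0.268 and 0.256 in SE-BDEV 1, 2 and 3. In CON-BDEV 1, 2 and 3 that ratio was 0.517, 0.253 and 0.0990 (exact permutation p = 0.9). Of the muscle miRNAs, miR-1a-3p had 123, 119 and 204 RPM in SE-BDEV 1, 2 and 3, against 54.3, 115 and 83.2 RPM in CON-BDEV 1, 2 and 3. The other muscle row, miR-133a-3p/133b-3p, was far lower, with 2.77, 1.80 and 2.81 RPM in SE-BDEV 1, 2 and 3, against 1.10 and 1.67 RPM in CON-BDEV 2 and 3 and a listed 0 in CON-BDEV 1. Whether blood, muscle or other cells supplied the miR-486 reads was not tested.

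**Figure D2:**
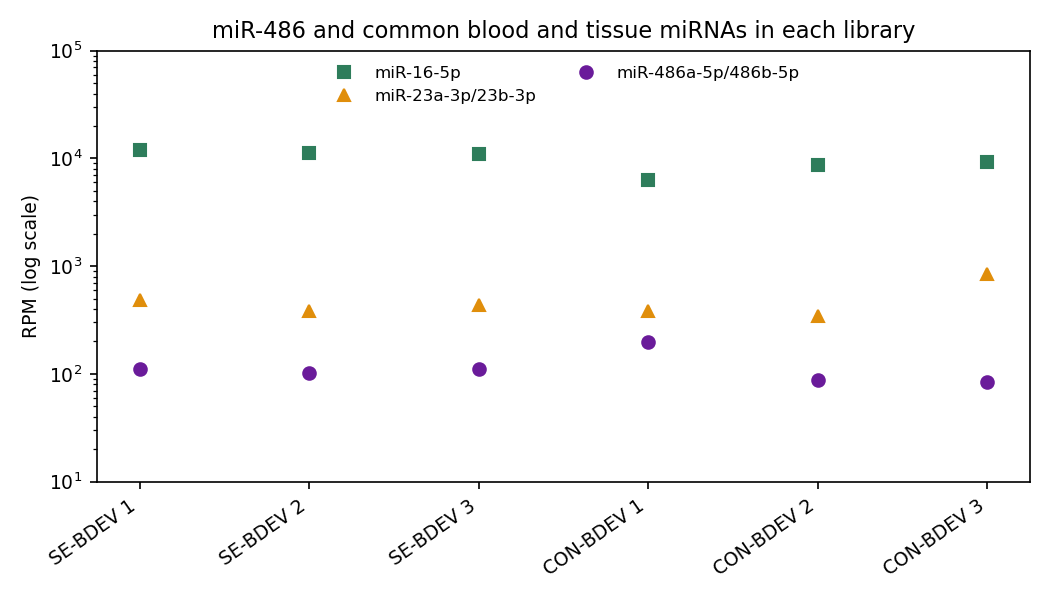
RPM on a log axis in each SE-BDEV and CON-BDEV library for miR-16-5p (squares), miR-23a-3p/23b-3p (triangles) and the merged miR-486 row (circles). miR-16-5p lies at 6252 RPM or higher in every library and the miR-486 row between 83.6 and 199 RPM, while miR-451a and both miR-144 arms, listed at 0, are not drawn.

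Both lymphoid miRNAs were present in all libraries and did not pass the test between groups. miR-342-3p, known from lymphocytes and also from brain, where microglia are among its sources, ranked 32nd of all miRNAs by mean level and supplied 91.3% of the summed RPM of the 10 names. It had 2129, 2326 and 1756 RPM in SE-BDEV 1, 2 and 3, against 2336, 1749 and 1676 RPM in CON-BDEV 1, 2 and 3. The groups overlapped, with the highest single value in CON-BDEV 1. Means were 2070.1 ± 289.6 RPM in SE-BDEV and 1920.2 ± 362 RPM in CON-BDEV (SD, n = 3 each), a limma log2 difference of 0.11 (95% interval -0.42 to 0.65, adjusted p = 0.901). In bulk vesicle RNA, a change in the number of vesicles from a cell type and a change in the RNA each carries cannot be told apart.

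miR-150-5p, which restrains the transcription factor Myb in maturing lymphocytes, had 81.2, 61.6 and 49.3 RPM in SE-BDEV 1, 2 and 3, against 77.7, 63.8 and 88.5 RPM in CON-BDEV 1, 2 and 3. SE-BDEV 3 was the lowest library and CON-BDEV 3 the highest, and the groups overlapped. Means were 64.1 ± 16.1 RPM in SE-BDEV and 76.7 ± 12.4 RPM in CON-BDEV (SD, n = 3 each), a limma log2 difference of -0.27 (95% interval -0.95 to 0.40, adjusted p = 0.769). With both libraries numbered 3 left out the log2 difference was 0.0069. The ratio of miR-150-5p to miR-342-3p was between 0.0265 and 0.0528 in the 6 libraries.

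The myeloid miRNAs were scarce. miR-223-3p, a brake on granulocyte production and on inflammasome signalling, had 6.18, 7.21 and 4.30 RPM in SE-BDEV 1, 2 and 3, against 3.41, 2.58 and 0 RPM in CON-BDEV 1, 2 and 3. These values correspond to 58, 36 and 29 reads in SE-BDEV and to 15, 21 and 0 reads in CON-BDEV. All 3 SE-BDEV libraries lay above all 3 CON-BDEV libraries, with the 0 of CON-BDEV 3 taken as listed. Its opposite arm, miR-223-5p, had 0.958, 1.60 and 1.78 RPM in SE-BDEV 1, 2 and 3, against 0.909, 0 and 0 RPM in CON-BDEV 1, 2 and 3, or 9, 8 and 12 reads in SE-BDEV against 4, 0 and 0 reads in CON-BDEV. In the deposited RPM these groups did not overlap either, with CON-BDEV 1 just under SE-BDEV 1 and the other 2 controls listed at 0. When values were scaled to the total without the 10 most abundant miRNAs, the groups overlapped for miR-223-5p (exact permutation p = 0.2). The third myeloid name, miR-147-3p, which toll-like receptor signals induce in macrophages, was listed at 0 in all 6 libraries.

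Neither miR-223 arm reached the mean of 10 RPM required for the main test. On log2(RPM + 1) the difference was 1.44 for miR-223-3p and 0.96 for miR-223-5p, and each had a two-sided exact permutation p of 0.1, also 0.1 when adjusted over the 2 arms, which is the smallest that 3 against 3 allows. In a limma fit of all 803 miRNAs above 0 the adjusted p was 0.753 for both arms, with an interval of 0.11 to 2.76 and an unadjusted p of 0.0361 for miR-223-3p. Of those 803 miRNAs, 5.60% had an unadjusted p under 0.05 and 0.374% an adjusted p under 0.05. The authors' deposited table gave miR-223-3p a log2 fold change of 1.48 ± 1.31 and miR-223-5p one of 2.35 ± 2.12 (SE from that table), with an adjusted p of 0.829 for each. Without CON-BDEV 3 the difference of miR-223-3p was 0.77, so its size rested in part on that library's 0. With both libraries numbered 3 left out the differences were 0.95 for miR-223-3p and 0.71 for miR-223-5p. In the deposited RPM, non-overlapping groups with SE-BDEV above CON-BDEV were found for 7.35% of the 803 miRNAs, and for 2 of the 5 rows followed here, which are arms of the same hairpin.

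For miR-342, miR-150 and the merged miR-486 rows, the opposite arm was less abundant than the member described above in all 6 libraries. miR-342-5p, at 329.8, 269.8 and 139 RPM in SE-BDEV 1, 2 and 3 against 282, 199.7 and 297 RPM in CON-BDEV 1, 2 and 3, had a limma log2 difference of -0.15 (adjusted p = 0.904). The 5p arm made up 10.4% ± 3.05 of miR-342 reads in SE-BDEV and 12.0% ± 2.63 in CON-BDEV (SD, n = 3 each, exact permutation p = 0.5, or 0.5 adjusted over 3 hairpins). It was lowest in SE-BDEV 3 at 7.31% and highest in CON-BDEV 3 at 15.0%.

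miR-150-3p was listed at 0 in SE-BDEV 1, 2 and 3, against a listed 0, 4.42 and 5.47 RPM in CON-BDEV 1, 2 and 3, the last 2 resting on 36 reads each. It passed the threshold neither in a test over libraries (exact permutation p = 0.4 on log2(RPM + 1)) nor in the authors' deposited table (adjusted p = 0.287). The 5p arm made up 96.98% ± 0.580 of reads of the merged miR-486 rows in SE-BDEV and 95.4% ± 0.869 in CON-BDEV (SD, n = 3 each). The groups did not overlap, at 96.5% to 97.6% in SE-BDEV and 94.4% to 96.2% in CON-BDEV, with an exact permutation p of 0.1, the smallest possible, and 0.3 adjusted over 3 hairpins. The 3p counts behind that share were 25, 17 and 27 reads in SE-BDEV 1, 2 and 3, against 35, 42 and 26 reads in CON-BDEV 1, 2 and 3. For miR-147 the single arm above 0 was miR-147-5p, with 5 reads in SE-BDEV 1.

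**Figure D3:**
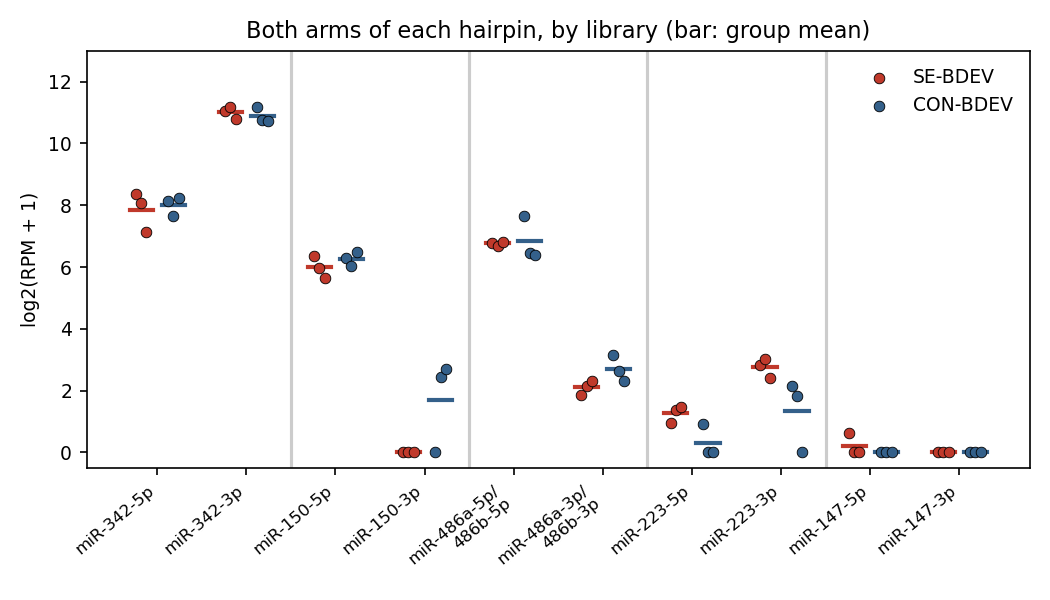
Both arms of each hairpin, as log2(RPM + 1), in the SE-BDEV libraries (red, left of each pair) and the CON-BDEV libraries (blue, right), with bars at group means. In miR-342 the 3p arm is the more abundant and in miR-486 and miR-150 the 5p arm, and miR-150-3p is above 0 in CON-BDEV 2 and 3 alone.

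The design compares SE-BDEV with CON-BDEV, and in that comparison none of the blood cell miRNAs passed. By limma on log2(RPM + 1), fitted to the 308 miRNAs that averaged at least 10 RPM, 0 of the 3 tested rows had an adjusted p under 0.05 and 0 had an unadjusted p under 0.05, and 0 of the 5 rows in the authors' deposited table passed there. The background was low as well: 3 of 308 miRNAs (0.974%) passed by limma, all higher in SE-BDEV, 10.4% had an unadjusted p under 0.05, and 1.12% of the miRNAs with an adjusted p passed in the authors' deposited table. With the replicate number as a block 10 of 308 passed by limma, and with both libraries numbered 3 left out 4 passed, and none of the 3 rows was among them in either fit. The median log2 difference was -0.07 for the 3 rows, 1 above and 2 below 0, and 0.06 over all 308. Their intervals reach down to -0.95 for miR-150-5p and up to 0.71 for the merged miR-486 row, and that of miR-342-3p was -0.42 to 0.65. With 3 libraries a group, differences inside a row's own interval stay possible for that row.

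**Figure D4:**
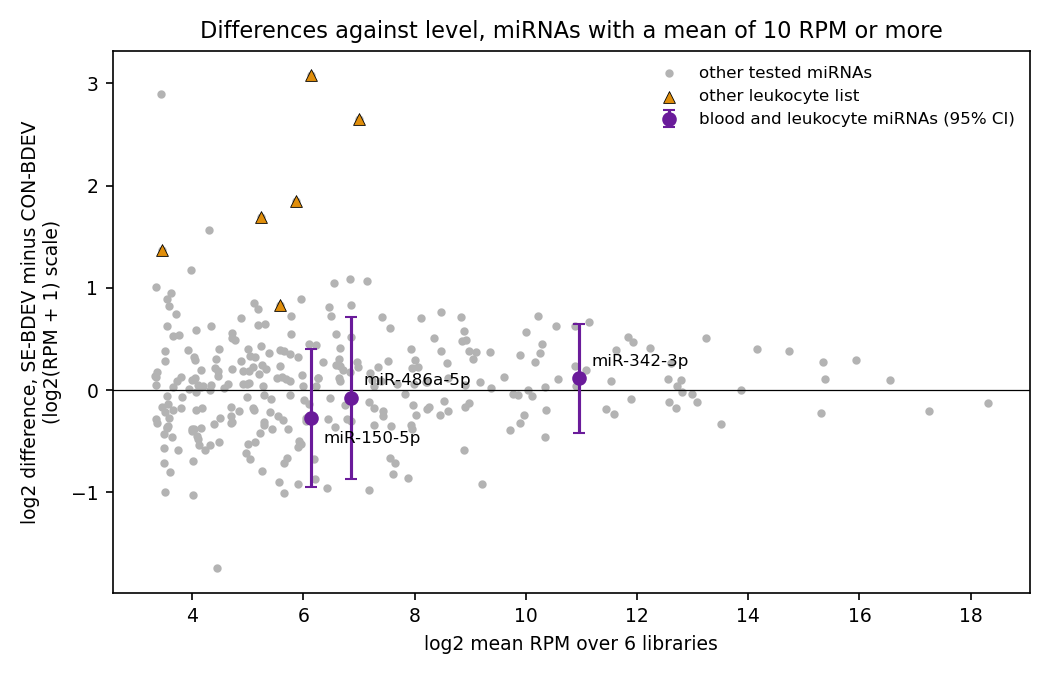
The log2 difference, SE-BDEV minus CON-BDEV, against the log2 mean RPM over the 6 libraries for 308 tested miRNAs (grey), with the 3 tested blood cell rows and their 95% intervals (purple) and 6 other leukocyte miRNAs (triangles). The 3 purple intervals all span 0, and the triangles lie between 0.83 and 3.08.

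Other leukocyte and inflammation-induced miRNAs, listed with earlier results of these data known, differed in the same libraries. Of 8 names, 2 were listed at 0 in all libraries and 6 were tested. By limma 3 of these passed, all higher in SE-BDEV: miR-155-5p, miR-142a-5p and miR-21a-5p. They were the only miRNAs to pass among the 308, a share of 0.974%. miR-155-5p, induced by activation in macrophages and lymphocytes, had 219, 259 and 189 RPM in SE-BDEV 1, 2 and 3, against 37.0, 27.7 and 39.4 RPM in CON-BDEV 1, 2 and 3 (log2 difference 2.65 ± 0.30, limma adjusted p = 0.000284). The 5p arm of miR-142a, a hairpin active across blood lineages, had 93.2, 121 and 64.3 RPM in SE-BDEV 1, 2 and 3, against 20.9, 25.7 and 26.5 RPM in CON-BDEV 1, 2 and 3 (limma adjusted p = 0.00761). Its 3p arm had 10.1, 17.4 and 21.9 RPM in SE-BDEV 1, 2 and 3, against 5.91, 3.81 and 7.14 RPM in CON-BDEV 1, 2 and 3 (limma adjusted p = 0.344). miR-21a-5p had 97.5, 119 and 163 RPM in SE-BDEV 1, 2 and 3. In CON-BDEV 1, 2 and 3 it had 7.05, 17.2 and 21.0 RPM (log2 difference 3.08, limma adjusted p = 0.000498). miR-146a-5p had a log2 difference of 1.69 (limma adjusted p = 0.105). The groups did not overlap for 6 of the 6 tested, against 16.2% of the 308. The summed level of the 8 was 531 to 652 RPM in SE-BDEV and 109 to 157 RPM in CON-BDEV, and that of the 3 myeloid rows 6.07 to 8.81 RPM in SE-BDEV and 0 to 4.32 RPM in CON-BDEV. Whether the miR-223 and miR-155 differences have a common source was not tested.

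The list of other red cell and platelet miRNAs, most of them also made in many tissues, had 13 names, of which 2 were listed at 0, 8 were tested and none passed by limma or in the authors' deposited table. All 8 had higher means in SE-BDEV on the log scale, also under both other scalings, with a median log2 difference of 0.54. Of the 8, 5 had an unadjusted p under 0.05 by limma, against 10.4% of the 308. miR-16-5p had a log2 difference of 0.51 (limma adjusted p = 0.405), and the values furthest from 0 among the 8 were 1.17 for miR-20a-5p, 0.89 for miR-15b-5p and 0.64 for miR-15a-5p. Below the 10 RPM filter, miR-106b-5p was lower in SE-BDEV (-0.21 on log2(RPM + 1)) and overlapped between groups. There miR-183-5p also overlapped (0.29), while miR-182-5p did not (1.58, with CON-BDEV 1 listed at 0). In 6 of the 8, from a list also chosen with earlier results known, all SE-BDEV libraries lay above all CON-BDEV libraries, against 10.7% of the 308. That count is therefore not an independent test. In the same libraries miR-451a and both miR-144 arms were listed at 0 and the merged miR-486 row overlapped between groups, and the part of blood cells in these differences was not tested.

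Vessel wall miRNAs, which travel with brain microvessels, were 4, all tested, with none past the threshold by limma or in the authors' deposited table. Of the 4, 1 had an unadjusted p under 0.05 by limma, against 10.4% of the 308. Their median log2 difference was 0.41, and miR-126a-5p, of endothelial cells and platelets, had the highest at 0.72 (limma adjusted p = 0.438). Of the 3 tested miRNAs of other organs none passed by limma or in the authors' deposited table. By limma, 1 of the 3 had an unadjusted p under 0.05, against the same 10.4%. Their median log2 difference was 0.64, with all 3 above 0. In 2 of the 3, from a list also chosen with earlier results known, all SE-BDEV libraries lay above all CON-BDEV libraries, against 10.7% of the 308. One of these, miR-122-5p of liver, a plasma miRNA, had a log2 difference of 0.55. It had 132, 128 and 88.7 RPM in SE-BDEV 1, 2 and 3, against 75.0, 78.1 and 79.7 RPM in CON-BDEV 1, 2 and 3. In reads that range overlaps those of miR-150-5p and the merged miR-486 row, but RPM of different miRNAs are not directly comparable. Whether plasma supplied any of these reads was not tested. The 6 ubiquitous miRNAs had a median of -0.03 and the 6 brain miRNAs one of 0.15, and none of these passed by limma or in the authors' deposited table. An unadjusted p under 0.05 by limma was found for 0 of the ubiquitous and 1 of the brain miRNAs, again against 10.4%.

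**Figure D5:**
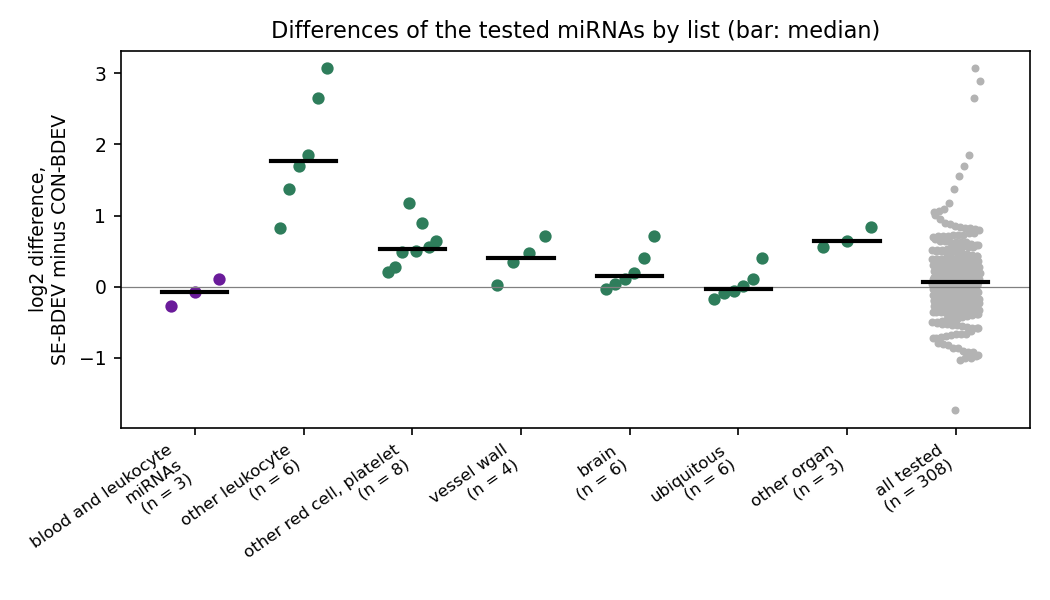
The log2 difference, SE-BDEV minus CON-BDEV, of each tested miRNA in the blood cell set and in 6 other lists, with all 308 tested miRNAs at the right and bars at medians. The blood cell set has its median at -0.07, the other leukocyte list at 1.77 and all tested miRNAs at 0.06. The blood cell set and the lists were chosen with earlier results of these data known.

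The profiles over the 6 libraries most like each tested row were found from log2(RPM + 1) values centred on their own mean, by root mean square difference. For miR-150-5p they were miR-412-5p (0.122), miR-7a-2-3p (0.123) and miR-134-5p (0.134), against a median of 0.458 over tested miRNAs. For miR-342-3p they were miR-125a-3p (0.0900), miR-574-5p (0.127) and let-7b-5p (0.189), against a median of 0.443. For the merged miR-486 row they were miR-3057-5p (0.142), miR-877-5p (0.157) and miR-664-5p (0.177), against a median of 0.527. A flat profile would lie 0.281 from miR-150-5p, 0.201 from miR-342-3p and 0.407 from the merged miR-486 row. By that measure let-7b-5p was hardly nearer to miR-342-3p than a flat profile. No other member was among the nearest 3 of any row, and profiles over 6 libraries share those libraries' depth and scaling.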

How the data were processed

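Small RNA of brain vesicles was sequenced in 6 libraries. Per the labels' protocols, the kits were miRNeasy Micro, with a DNase step, for RNA and QIAseq miRNA for libraries. The authors deposited RPM values, which sum to the same total in each library, and their own comparison with log2 fold changes, a test score, p-values and a mean normalized signal. DESeq2 and build mm9 are named in the submitters' processing notes, while the sources used here name no aligner or counter. All values above 0 were whole multiples of a step (within 0.0001), but no single reads are listed, so no count model was run. A planned upper limit for miRNAs listed at 0 was not used, because zeros can be removed values.

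The members and lists were chosen with earlier results of these data known. Named were all members, listed miRNAs that passed, some others of the lists, not always those with the largest differences, and the 3 nearest profiles. limma 3.58.1 (R 4.3.3, statmod 1.5.0), with trend and robust variances, was fitted to log2(RPM + 1) for 308 miRNAs averaging at least 10 RPM, two-sided, Benjamini-Hochberg adjusted, called under 0.05. Fold changes on that scale understate low miRNAs. The fit was tested on simulated data with planted differences far larger than those of the 3 tested rows. It therefore does not cover differences of their size. Values are mean ± SD, and errors of log2 differences are standard errors. Single values had an exact permutation test (scipy 1.17.1). RefSeq and GENCODE sequence positions are of GRCm38, another build than mm9, and were matched by name. Alternatives were the pseudocount, filter, scaling, replicate block, each library left out and the authors' table.

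Deviations from group means correlated at 0.216, 0.202 and 0.462 for libraries numbered 1, 2 and 3 alike, though the labels name no pairs. Unlike numbers ranged from -0.410 (SE-BDEV 1 with CON-BDEV 3) to 0.336 (SE-BDEV 1 with CON-BDEV 2), the latter above SE-BDEV 1 with CON-BDEV 1. Without miR-24-3p the correlations of like numbers were -0.0639, -0.0614 and -0.0806.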

Additional observations from a re-analysis of the deposited data

How the results depend on the processing

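None of the 3 tested rows passed the threshold under its 16 alternatives: the adjusted p ranged from 0.594 to 0.994 for miR-150-5p, from 0.823 to 0.997 for miR-342-3p and from 0.766 to 0.990 for the merged miR-486 row. miR-342-3p kept its direction (0.02 to 0.26). Leaving out 1 library gave -0.29 to 0.33 for the miR-486 row, above 0 without CON-BDEV 1 alone, and -0.46 to -0.10 for miR-150-5p, which was at 0.0069 with both libraries numbered 3 left out, a setting chosen after seeing the data, as was a fit of only the miRNAs found in every library. The cause was not tested. Against 3 called miRNAs, the replicate block gave 10, the authors' deposited table held 7, and leaving out 1 library 2 to 8, with 8 without CON-BDEV 2. The block changed the call of no member. Both miR-223 arms stayed higher under every alternative run, at 0.41 to 2.58 for miR-223-3p and 0.15 to 2.80 for miR-223-5p, with the ends set by pseudocounts of 10 and 0.1 RPM. For these arms, at most 58 reads in a library, depth limits precision, and a fit with the replicate block, added after seeing the data, gave adjusted p of 0.404 and 0.735. Summed levels by role moved by less than 1 SD with median-of-ratios scaling.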

Other observations

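Matching of bases 2 to 7, a looser criterion chosen after seeing that no seed was shared, paired miR-144-3p with miR-101a-3p, which has its own genes and is made in many tissues. The merged miR-101 row was above 0 in all libraries, at 23.4 to 63.9 RPM in SE-BDEV and 20.7 to 29.5 RPM in CON-BDEV, while miR-144-3p was listed at 0. For miR-223-3p the same match found miR-344f-5p, which was listed at 0 in all libraries.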
